A study of Mus musculus with 36 samples.

Results

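Both altered alleles of Brdt were compared directly with each other in juvenile mouse testis: 3 animals homozygous for a deletion of the first bromodomain (BD1-/-, here the BD1 deletion) were set against 4 animals homozygous for the knockout (KO-/-), all at 20 days post partum (dpp). The 7 animals gave 12 of the 36 arrays and are 7 of the 24 animals of the series. They were chosen by their genotype labels and not by any measured value. The BD1 deletion animals were numbers 193, 197 and 222, from litters 4, 5 and 6, with 2 arrays each. The knockout animals were 139 and 140 of litter 2, with 1 array each, and 148 and 152 of litter 1, with 2 arrays each. Arrays of an animal were averaged, so n counts animals. All mice carried the strain label C57BL/6, and the RNA was total RNA of prepubertal testis. Controls at 20 dpp showed how far the lines differ without a homozygous mutation. They were 3 wild-type animals of the knockout line (KO+/+, animals 146, 149 and 157, all litter 1) and 4 animals of the BD1 line, of which 219 (litter 6) and 191 (litter 4) were heterozygous (BD1+/-) and 195 and 196 (both litter 5) wild type (BD1+/+). They were littermates of the mutants, except that no control came from litter 2. Maturation was described with 6 heterozygous animals of the knockout line at 17 dpp (KO+/-, litters 7, 8 and 9). No litter held both mutants, so a difference between litters and a difference between alleles cannot be told apart within the 7 animals. The labels name no promoter or Cre driver, and whether both arrays of a mouse used 1 RNA extract is not stated.

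BRDT is the testis-specific member of the BET family, chromatin proteins that bind acetylated histones through a pair of bromodomains. It is made in meiotic and post-meiotic male germ cells, where it is known to act on transcription in spermatocytes and on the compaction of acetylated chromatin in spermatids. The first bromodomain binds acetylated histone H4. A knockout removes the protein, while a BD1 deletion can leave a shortened one that keeps the other bromodomain. Around 20 dpp the first wave of germ cells passes through late meiosis, so whole-testis RNA holds somatic cells, spermatogonia, spermatocytes and the earliest spermatids together.

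Signals are bead array intensities, background-corrected, quantile-normalized and given on the log2 scale. A gene was called when its Benjamini-Hochberg adjusted p in limma, over the 11529 genes tested, was under 0.05. Array medians before normalization lay between 128.6 and 150.5 in the BD1 deletion and between 118.3 and 143.9 in the knockout. Between 17710 and 19475 probes were detected per BD1 deletion array, and between 17658 and 19460 per knockout array. Across probes, arrays of the same mutant animal had a median Pearson correlation of 0.993, and a BD1 deletion animal with a knockout animal had one between 0.969 and 0.991. Knockout litter 1 lay nearer to the BD1 deletion (0.981 to 0.991) than litter 2 (0.969 to 0.987), and all these correlations share the same probes and base composition. The meiotic genes Stag3 and Spo11 and the Sertoli markers Shbg and Dhh, which define testis, were present in all 7 animals, with log2 signals from 9.82 (Shbg, animal 222) to 13.22 (Stag3, animal 222).

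Brdt transcript itself was far higher in the BD1 deletion than in the knockout. The log2 signal was 10.20, 10.29 and 10.50 in animals 193, 197 and 222. In the knockout it was 7.23 and 7.52 in animals 139 and 140 of litter 2, and 8.28 and 8.23 in animals 148 and 152 of litter 1. No animals overlapped, and the knockout litters, with 2 animals each, differed by 0.88 (limma, adjusted p = 0.251, not called). The difference was 2.51 ± 0.30 on the log2 scale (SE), or 5.71-fold (limma, adjusted p = 7.06e-06). The control groups of the lines differed by -0.16 (adjusted p = 0.927). Another Brdt probe gave a difference of 1.60 ± 0.21 (adjusted p = 2.34e-05), and one more was detected on 0 arrays. The position of each probe with respect to the deleted sequence is unknown, so the probes cannot check the labels by themselves. The other measured BET genes, Brd2 and Brd3, which most cells express, differed by 0.08 and 0.09 and were not called.

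In all, 1950 of 11529 genes were called between the mutants (16.9%). In the BD1 deletion 907 genes were higher (7.87%) and 1043 lower (9.05%), and the differences upward were larger: 353 of the higher genes but 45 of the lower ones differed by at least 2-fold. The animals of both groups did not overlap for 3793 genes (32.9%), of which 1519 (13.2%) were higher and 2274 (19.7%) lower. The median over all genes tested was -0.09. With each array scaled to its median in place of quantile normalization the split was 1077 higher and 397 lower, and with all differences taken relative to that median it was 1181 higher and 484 lower. Single animals weighed heavily on these counts. Without BD1 deletion animal 222 of litter 6 there were 331 higher and 216 lower genes, and without knockout animal 139 there were 575 and 578. Without knockout animal 140, 652 genes were lower. Against knockout litter 1 alone 765 genes were called (438 higher, 327 lower), and against litter 2 alone 2308 (1117 higher, 1191 lower), with the other animals kept in the fit. Left out of the fit altogether, the animals of litter 2 left 720 calls. The litters of the knockout differed from each other in 17 genes. With litter as a random block 1159 genes were called, 669 higher and 490 lower.

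The genes that stood furthest above the knockout included the serine protease genes Prss39 and Prss21 and the cyclin gene Ccna1. Prss39, an acrosomal trypsin-like protease, had log2 signals of 9.50, 9.75 and 10.70 in the BD1 deletion and 4.76, 4.99, 5.60 and 6.12 in the knockout. All BD1 deletion animals were high and animal 222 the highest. The difference was 4.62 ± 0.44, or 24.6-fold (limma, adjusted p = 2.46e-07), and the probe was detected on 3 of the 6 knockout arrays. Prss21, a membrane-anchored serine protease of male germ cells, read 9.56, 9.33 and 10.48 against 4.61, 4.63, 5.57 and 6.38, a difference of 4.49 ± 0.54 (adjusted p = 7.47e-06). Ccna1, the cyclin A1 needed for male meiotic division, read 9.44, 9.69 and 10.39 in the BD1 deletion and 5.45, 5.54, 6.03 and 6.51 in the knockout. Its difference of 3.96 ± 0.32, or 15.6-fold (adjusted p = 2.24e-08), left the BD1 deletion below its own line's controls, whose mean was 11.2, with a difference of -1.38.

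**Figure D1:**
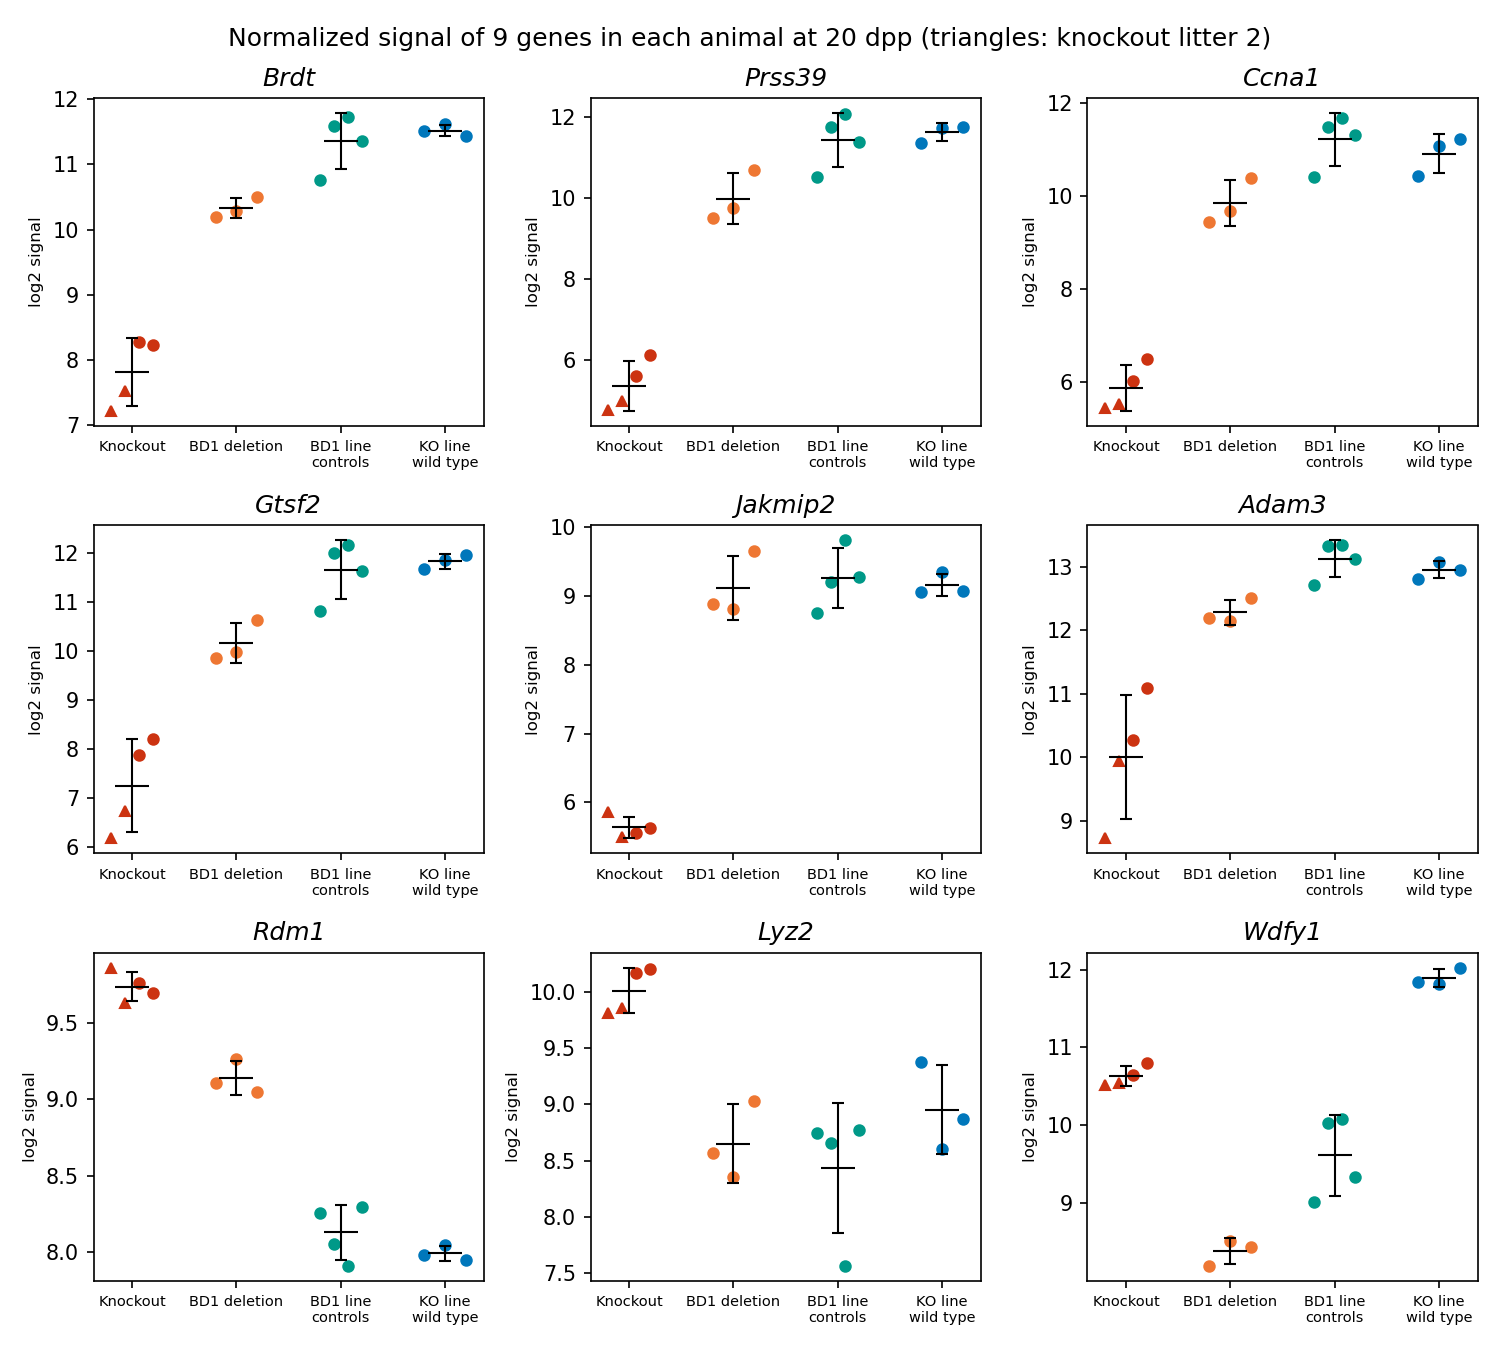
Normalized log2 signal of 9 genes (one panel each, vertical axes not starting at 0) in every animal at 20 dpp: knockout (red, triangles for litter 2), BD1 deletion (orange), BD1 line controls (green) and wild type of the knockout line (blue), with the group mean and SD as black bars. In each of the 9 panels no BD1 deletion animal overlaps a knockout animal, which was a condition of choice for Prss39, Ccna1, Jakmip2 and Wdfy1. For Jakmip2 the BD1 deletion mean of 9.11 lies beside the control means of 9.26 and 9.15.

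Jakmip2, which encodes a microtubule-associated protein, read 8.88, 8.81 and 9.65 in the BD1 deletion and 5.86, 5.51, 5.55 and 5.64 in the knockout, a difference of 3.48 ± 0.20 (limma, adjusted p = 9.04e-11). The BD1 deletion mean differed from its own controls by -0.14, while the knockout differed from its wild type by -3.52. Slc25a2, a mitochondrial ornithine carrier, was higher by 3.32, the water channel gene Aqp11 by 3.19 and Fa2h, the fatty acid 2-hydroxylase, by 3.14. Non-overlapping animals were a condition for the choice of these genes. Each was below its own line's controls in the BD1 deletion, with differences of -1.19 for both Slc25a2 and Aqp11 and -1.59 for Fa2h. Ccdc178 (4.35), Galntl6, of the GalNAc transferase family (3.60), Gm5796 (3.34), Gm9748 (3.26) and Ggn, gametogenetin (3.12), completed the 12 largest. The probes of Prss21, Jakmip2, Slc25a2 and Gm9748 were also detected on only 3 of the 6 knockout arrays, and that of Ccdc178 on 4. With each signal raised to at least the lowest detected one of its array, the differences were 4.32 for Prss39, 4.09 for Prss21, 3.40 for Jakmip2, 3.17 for Slc25a2, 2.98 for Gm9748 and 4.06 for Ccdc178. Ggn varied most within the knockout, from 6.23 in animal 139 to 9.69 in animal 152, and was not called without litter 2 (1.97). The other 11 were called under every alternative tried.

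The start regions of 3 genes are shown because Ccna1 and Galntl6 are among the largest differences upward and Kpna7 is the largest downward, with its probe detected on 1 of 6 BD1 deletion arrays. Capitals mark TGACG or its reverse complement CGTCA, one side of the palindrome that CREM-type activators of spermatid genes recognise. Sequences are from RefSeq on GRCm38.p6, read 5′ to 3′ on the gene's strand from 250 bases before to 50 after the start: Ccna1 at chr3:55055006-55055305 (minus strand), Galntl6 at chr8:58911578-58911877 (minus strand) and the lower gene Kpna7 at chr5:145009587-145009886 (minus strand).
Ccna1: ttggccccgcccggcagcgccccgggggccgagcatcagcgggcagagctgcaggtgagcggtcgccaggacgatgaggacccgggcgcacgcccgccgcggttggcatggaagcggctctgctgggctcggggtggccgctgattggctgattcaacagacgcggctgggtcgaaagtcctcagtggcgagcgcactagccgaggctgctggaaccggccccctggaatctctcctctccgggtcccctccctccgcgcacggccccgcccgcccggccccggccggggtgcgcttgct
Galntl6: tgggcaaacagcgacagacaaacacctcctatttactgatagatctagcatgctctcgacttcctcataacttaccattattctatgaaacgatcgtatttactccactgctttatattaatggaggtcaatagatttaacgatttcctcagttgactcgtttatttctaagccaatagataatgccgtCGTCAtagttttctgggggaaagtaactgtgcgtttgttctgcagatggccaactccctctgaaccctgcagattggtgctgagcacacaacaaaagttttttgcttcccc
Kpna7: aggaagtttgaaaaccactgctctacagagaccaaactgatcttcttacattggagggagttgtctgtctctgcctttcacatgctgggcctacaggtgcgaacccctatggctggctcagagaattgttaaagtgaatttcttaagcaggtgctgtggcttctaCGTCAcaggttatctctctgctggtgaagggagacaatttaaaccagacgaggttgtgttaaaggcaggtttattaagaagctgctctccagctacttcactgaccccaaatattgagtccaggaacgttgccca
Galntl6 holds 1 TGACG motif, 61 bases before the start, Kpna7 holds 1 at 85 bases before it, and Ccna1 none. Promoters were found for 723 of the genes called higher, of which 29.9% hold TGACG on either strand, for 269 of those higher by at least 2-fold (21.2%) and for 850 of those called lower (32.9%). Among the 9371 tested genes with a promoter the share was 30.8%, and among all 27025 RefSeq promoters given it was 21.0%. The full palindrome TGACGTCA, which contains TGACG on both strands, was in 2.77% of the promoters of higher genes and 3.21% of those tested. A match is a description of letters and not a bound site.

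Genes of the acrosome, the enzyme-filled cap of the sperm head, were higher or not called. Of 30 measured, 8 were higher (26.7%, beside 7.87% of all genes) and 0 lower. The median difference was 0.30 beside -0.09 over all genes. Zpbp2, an acrosomal zona-binding protein, read 10.72, 10.99 and 11.37 in the BD1 deletion and 7.64, 8.67, 8.40 and 9.28 in the knockout, a difference of 2.53 ± 0.40 (limma, adjusted p = 0.000193). Its other probe gave 2.47. Actl9, an actin-like protein, was higher by 1.10, or 0.91 with signals raised to the lowest detected one, since its probe was detected on 1 of 6 knockout arrays, while Spam1 (-0.01), Eqtn (0.06) and Zp3r (0.04) were not called. Without animal 222 the list had 3 higher genes and without litter 2 it had 4, and Actl9 was lost in both.

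Flagellar genes had the highest median of the lists. Of 32 measured, 13 were higher (40.6%, beside 7.87% of all genes) and 0 lower, with a median of 0.80. The animals of 20 of the 32 did not overlap upward, as did those of 13.2% of all genes. Tcte1, of the dynein regulatory complex, read 7.07, 7.28 and 8.24 against 4.98, 5.20, 6.18 and 6.26 (1.88 ± 0.37, limma, adjusted p = 0.00164). The tektin Tekt5 was higher by 1.49, the radial spoke gene Rsph6a by 1.73 and Hydin, of the central pair apparatus, by 1.02. Tekt5 and Rsph6a were each detected on 3 of 6 knockout arrays, and with the raised signals they differed by 1.24 and 1.64. Sheath and fibre genes that come later in spermatid life, Akap4 (-0.07), Akap3, Ropn1 and Odf1 (0.36), were not called. Without litter 2 only 1 of the 32 was called and without animal 222 or animal 139 there were 5, so Tcte1, Tekt5 and Rsph6a were lost without litter 2. Among 9 measured subunits of CatSper, the sperm calcium channel, Catsperd (1.84) and Catsper2 (1.15) were higher (22.2%) and 0 were lower. Neither was called without litter 2. Of 18 sperm surface ADAM proteases and their chaperones, 4 were higher (22.2%) and 0 lower. The 4 were Adam18 (2.61), Adam3, which sperm need to bind the zona (2.27), Adam1b (1.89) and Adam30 (1.59). Adam3 read 12.19, 12.15 and 12.51 against 8.73, 9.94, 10.28 and 11.09, with the knockout lowest in litter 2, and its call was lost when any of animals 193, 197, 222, 139 or 140 was left out. The list's median, 0.07, turned to -0.01 without litter 1. It rose to 0.38 with detection required in at least 7 animals, which kept 14 of the 18. Another Adam1b probe gave 0.75 and was not called.

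**Figure D2:**
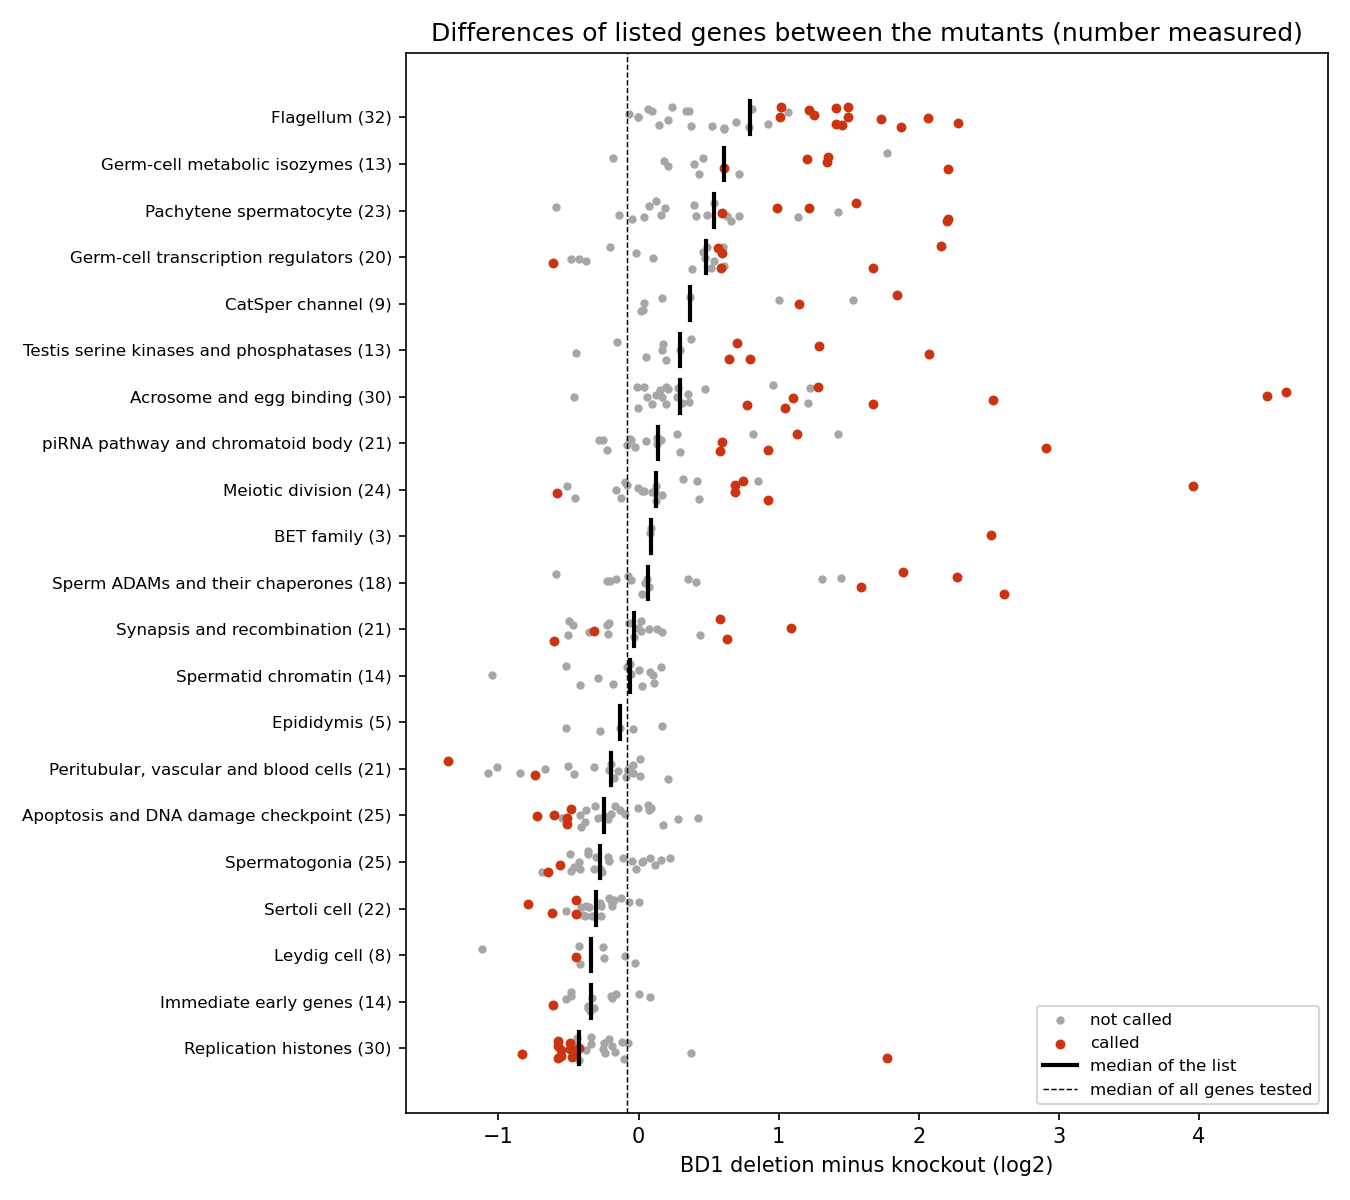
Differences between the mutants (horizontal axis, BD1 deletion minus knockout, log2) for the measured genes of the 21 lists (rows, number measured in brackets): red points are called, grey ones are not, black bars are list medians and the dashed line is the median of all genes tested (-0.09). Flagellum has the highest median (0.80) and replication histones the lowest (-0.43).

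Isozymes, kinases and RNA-processing factors of spermatocytes and spermatids gave a similar picture. Among 13 germ cell metabolic isozymes, 5 were higher (38.5%, beside 7.87% of all genes) and 0 lower (median 0.61). Pgk2, the germ cell phosphoglycerate kinase, read 11.09, 11.13 and 11.67 against 7.96, 8.50, 9.66 and 10.24, a difference of 2.21 ± 0.63 (limma, adjusted p = 0.0191). Cox7b2, a respiratory chain subunit detected on 2 of 6 knockout arrays, was higher by 1.35 (1.08 with raised signals) and Eno4, a sperm enolase, by 1.21. Hexokinase Hk1 (0.61) was not called under median scaling, without background correction, with litter as a block or without any of animals 193, 197, 222, 139, 148 or 152. Of 23 pachytene spermatocyte genes 6 were higher (26.1%) and 0 lower (median 0.54). The 6 were Ankrd36 (1.55), Ddx25, a germ cell RNA helicase (0.60), Pgk2, Ovol1, Hspb9 and Crisp2, a cysteine-rich secretory protein. Crisp2 is given as at least 1.37-fold higher because its probe was detected on no knockout array. Hspa2 (0.13) and Ldhc (0.40), other pachytene transcripts, were not called. Counts fell to 1 of 23 pachytene genes and 2 of 13 isozymes without litter 2, and to 1 and 1 without animal 222. Another Eno4 probe (0.68) and 1 of 4 Ankrd36 probes (-0.12) were not called.

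Among 13 testis kinases and phosphatases 5 were higher (38.5%, beside 7.87% of all genes) and 0 lower (median 0.30). Ppp3r2 and Ppp3cc, the testis calcineurin subunits, were higher by 2.07 and 0.65, the kinase Stk33 by 1.29 and Tesk1 by 0.79. Another Ppp3cc probe gave 0.10 and was not called. Only Stk33 of these 4 was called without animal 222 or without litter 2, and Tesk1 was also lost with litter as a random block. In the piRNA pathway and chromatoid body list, 5 of 21 were higher (23.8%) and 0 lower (median 0.14). Gtsf2, a paralogue of the piRNA factor Gtsf1, read 9.86, 9.98 and 10.63 against 6.18, 6.74, 7.87 and 8.20, a difference of 2.91 ± 0.50 or 7.52-fold (limma, adjusted p = 0.000427). Henmt1, the methyltransferase of piRNA 3′ ends, was higher by 1.13 and Gtsf1 by 0.92, while the PIWI protein genes Piwil1 (0.16) and Piwil2 (-0.03) were not called. Counts were 1 of 21 without litter 2 and 2 without animal 222. Of 20 transcription regulators of germ cells, 5 were higher (25%) and 1, the Y-linked Zfy1 (-0.61), lower (5%, beside 9.05% of all genes). Zmynd15, a repressor of haploid genes, read 6.43, 6.64 and 7.96 against 4.55, 4.56, 4.86 and 5.43, a difference of 2.16 ± 0.35 (adjusted p = 0.00024) with detection on 1 of 6 knockout arrays, and 1.51 with raised signals. Nr6a1, the germ cell nuclear receptor, and Zfp37 were each higher by 0.59, and Crem (0.46) was not called. Without litter 2 there were 2 higher regulators and without animal 222 there were 3. The lower call was lost under median scaling, in a fit of the mutants alone, with first arrays, without litter 2 and without any of animals 193, 222, 139 or 140.

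In meiosis the BD1 deletion and knockout differed in particular genes on a list median near 0. Of 24 division genes 5 were higher (20.8%, beside 7.87% of all genes) and 1 lower (4.17%, beside 9.05%), with a median of 0.12. After Ccna1, Aurka and Bora, the kinase Aurora A and its activator, were each higher by 0.69, and Sgo1, the protector of centromeric cohesion, was lower by -0.59 with readings of 7.89, 7.84 and 7.85 against 8.25, 8.55, 8.48 and 8.50. Cdk1 (-0.08) and Cdc25c (0.04) were not called. Aurka was lost without litter 2 or animals 197, 222, 139 or 140, and Bora without litter 2, where 1 division gene was higher, beside 2 without animal 222. Among 21 synapsis and recombination genes 3 were higher (14.3%) and 2 lower (9.52%, near the share of all genes). The list median of -0.03 became 0.04 under median scaling. Stag3, the meiotic cohesin, read 12.98, 13.06 and 13.22 against 12.50, 12.39, 12.62 and 12.52, a difference of 0.58 ± 0.08 (limma, adjusted p = 2.2e-05). Syce1, of the synaptonemal complex, was higher by 1.09 and Spo11, which makes meiotic DNA breaks, by 0.63. Rdm1, which carries a RAD52 motif, was lower: 9.11, 9.26 and 9.05 against 9.86, 9.63, 9.76 and 9.70 (-0.60 ± 0.12, adjusted p = 0.0026). Spo11 was lost without animal 222 or without litter 2. Of the 14 measured genes of spermatid chromatin, which replace histones late in spermatid life, 0 were called in limma and 2 had an unadjusted p under 0.05. Their median was -0.06 and turned to 0.03 relative to the median of all genes, and Tnp1 (-0.18) and Prm1 (0.11) were among them. With detection required in at least 7 animals, 8 of the 14 remained and 0 of these were called. Genes at the edge of detection can hide a difference, so equal levels are not shown.

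In the lists of replication histones, checkpoint genes, immediate early genes and spermatogonia, the genes called were lower in the BD1 deletion, except the histone gene H4c2. Of 30 replication-dependent histone genes, 11 were lower (36.7%, beside 9.05% of all genes) and 1 higher (median -0.43). The animals of 16 of the 30 did not overlap downward, as did those of 19.7% of all genes. H4c18 read 7.73, 7.69 and 7.77 against 8.58, 8.70, 8.64 and 8.34, a difference of -0.84 ± 0.17 (limma, adjusted p = 0.00274), and another H4c18 probe gave -0.38 and was not called. H4c2 went the other way, at 6.91, 6.86 and 7.72 against 4.74, 4.77, 5.87 and 6.17 (1.77 ± 0.31). Probes of H4 and other histone genes may bind near-identical copies, so the member is uncertain. The lower histones fell to 3 under median scaling, 1 without animal 222 and 1 without litter 2. Among 25 apoptosis and checkpoint genes 5 were lower (20%) and 0 higher: Ccng1 (-0.72), Bbc3 (-0.60) and Sesn2 (-0.48), which p53 is known to induce, Bik (-0.51) and Gadd45a (-0.51), of which Gadd45a was named after its value was seen. Another Bbc3 probe gave 0.33 and was not called. Without animal 222 or without litter 2, 1 of the 25 was lower, and Sesn2 was lost under 13 of 22 alternatives. Of 14 immediate early genes 1, Klf2 (-0.61), was lower, a share of 7.14% that was no larger than the 9.05% of all genes. Klf2 was lost without animal 222 or without litter 2. Among 25 spermatogonial genes 2 were lower, Kit (-0.65) and Zbtb16 (-0.56). Their share, 8%, was no larger than the 9.05% of all genes, and the list median was -0.28. Zbtb16 was lost under 13 of 22 alternatives, litter as a random block among them, and 0 were lower without animal 222. Another Kit probe gave -0.43 and was not called.

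The few somatic cell genes called were lower, at 18.2% of the Sertoli list, 12.5% of the Leydig list and 9.52% of the list of peritubular, vascular and blood cells, beside 9.05% of all genes. Of 22 Sertoli cell genes 4 were lower and 0 higher (median -0.31): Kitl, the ligand of Kit (-0.79), Shbg (-0.62), Vim (-0.45) and Dhh (-0.45). Their summed signal per animal was, in units of 1000, 91.4 to 119 in the BD1 deletion, 115 to 132 in the knockout, 72.2 to 106 in the BD1 line controls and 77.9 to 89.6 in wild type of the knockout line. Akr1cl (-0.44) was the 1 of 8 Leydig cell genes called, with a summed signal of 13.9 to 14.5 against 17.0 to 21.6, and Cyp17a1 at -1.12 was not called. Akr1cl was lost under 14 of 22 alternatives, among them median scaling and litter as a random block, which left 0 Leydig genes called. In the list of peritubular, vascular and blood cells 2 of 21 were lower, Lyz2, the lysozyme of macrophages (-1.36), and C1qb, a complement subunit (-0.74), with sums of 42.1 to 52.8 against 52.2 to 115. Lyz2 read 8.57, 8.35 and 9.03 against 9.81, 9.86, 10.16 and 10.20, though a second Lyz2 probe gave -0.36 and was not called. Of 5 measured epididymis genes 0 were called, and their sums, 1.01 to 2.45 against 0.37 to 5.32, overlapped. C1qb was lost with first arrays, without litter 2 and without any of animals 197, 222 or 139. Without animal 222, 0 Sertoli genes were lower, and Vim and Dhh were lost under 14 and 13 of 22 alternatives, litter as a random block among them. In whole testis, fewer cells of a type and less RNA per cell cannot be told apart, and the part of cell composition in the germ cell differences was not tested.

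Of the 12 genes furthest below the knockout, 8 were also called lower between the control groups of the lines. Wdfy1, an endosomal FYVE domain protein, read 8.20, 8.51 and 8.44 in the BD1 deletion and 10.52, 10.55, 10.65 and 10.80 in the knockout (-2.25 ± 0.18, limma, adjusted p = 1.39e-08), and its control groups differed by -2.28 (adjusted p = 2.6e-08). Arhgap22 differed by -1.89 between mutants and -1.88 between controls, and the spindle protein gene Dlgap5 by -1.85 and -1.90. Psmb5, a catalytic proteasome subunit, gave -1.87 and -1.53, and Supt16, a subunit of the histone chaperone FACT, -2.08 and -1.48, but another Supt16 probe gave 0.10 between the mutants and was not called. The importin gene Kpna7 (-2.58 and -1.99), Mrap, an accessory protein of the ACTH receptor (-2.29 and -2.14), and Kctd14 (-2.07 and -1.46) were called in both comparisons. Some of these values lie at the edge of detection: the Kpna7 probe was detected on 1 of 6 BD1 deletion and 2 of 6 BD1 line control arrays, with a mutant difference of -2.30 once signals were raised to the lowest detected one, and the Arhgap22 probe on 1 of 6 BD1 line control arrays. Of the 12 largest, Ctsc, cathepsin C (-2.36), Osr2, a zinc finger factor (-1.81), 1190007I07Rik (-2.58) and 4930515G01Rik (-2.02) were not called between the controls, where they gave -1.99, -0.87, -0.58 and -0.39. The probes of 1190007I07Rik and 4930515G01Rik were each detected on 2 of 6 BD1 deletion arrays, and the raised signals gave -2.00 and -1.81. Ctsc was not called without animal 193, which read 4.47 beside 7.09 and 8.01, and a second Osr2 probe gave -0.41 and was not called. For none of the 12 was the mutant difference called different from the control difference (limma, adjusted p of 0.136 or more). With few animals per group this test can miss gaps such as -2.02 beside -0.39 for 4930515G01Rik. It does not show that both differences are equal.

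**Figure D3:**
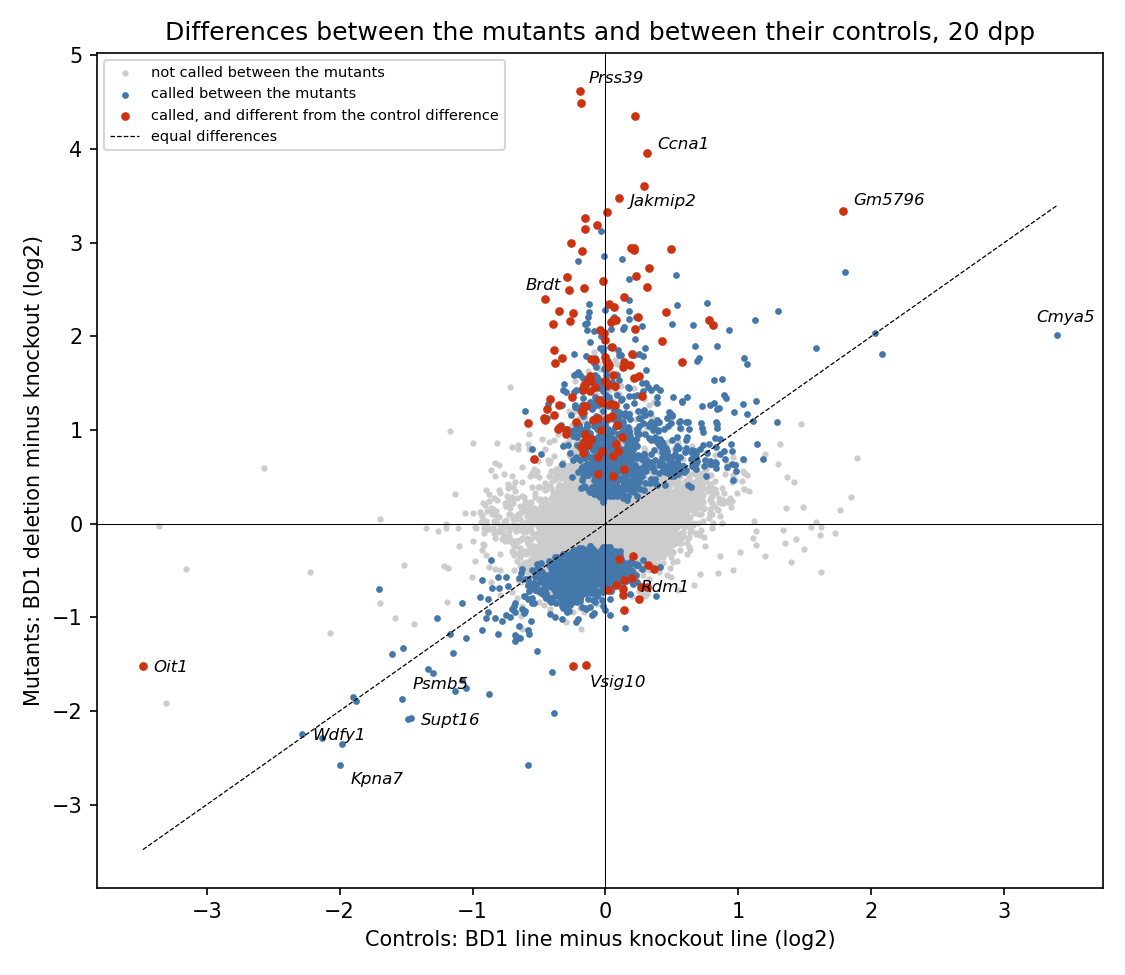
Each point is 1 of the 11529 genes tested: the difference between controls of the lines (horizontal axis, log2) against the difference between the mutants (vertical axis, log2), with the dashed line where both are equal. Blue and red points are called between the mutants, red ones also differ between the axes; Prss39 (4.62) and Ccna1 (3.96) lie near 0 on the horizontal axis, while Wdfy1 lies on the dashed line.

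Between the control groups, which share no animal with the mutants but come from litters 1, 4, 5 and 6 as they do, 197 genes were called (1.71%), 121 higher (1.05%) and 76 lower (0.659%) in the BD1 line. Of the 907 genes higher in the BD1 deletion, 60 were also higher in its line's controls, 6.62% of the former and 49.6% of the 121. Of the 1043 lower genes, 50 were lower in both, 4.79% and 65.8% of the 76, and 0 were called in opposite directions. The largest control differences were Cmya5 (3.40), Gm2897 (2.08) and Hbb-b2 (2.02) upward and Oit1 (-3.48), Lrrc18 (-3.36), Ndufb10 (-3.31) and Cdh24 (-3.15) downward. Between the mutants Cmya5 was at least 2.41-fold, Gm2897 at least 1.80-fold and Hbb-b2 at least 2.49-fold higher, and Oit1 at least 1.48-fold lower, each undetected on every array of the lower group. Lrrc18 was detected in neither mutant, Cdh24 differed by -0.49, and Ndufb10 by -1.91 (adjusted p = 0.0518), where its other probe gave 1.25 and was called. The control count fell to 64 without wild-type animal 157, 75 without 146, 85 without 149 and 115 without heterozygote 219.

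Called in both comparisons in the same direction and by at least 2-fold in each were 29 genes, 11 higher and 18 lower. Chromosome 14 held 14 of them, among them Supt16, Psmb5, Dlgap5, Arhgap22, Oit1, Gm3696 and Gm5796. On chromosome 14, 33 of 400 genes tested were called between the controls (8.25%), and on chromosome 17, 30 of 579 (5.18%), beside 1.71% of all genes. Between the mutants chromosome 14 had 52 lower genes, 13% of its 400, beside 9.05% of all genes. It had 32 higher genes of 400, where 7.87% of all genes were higher. Copies of the Gm2897, Gm3696 and Gm5796 genes are alike, so their probes may bind more than 1 of them.

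Mutants and controls share these litters, so neither the overlap nor the test of the mutant difference against the control difference is independent of litter. That test called 144 genes (1.25%), 126 higher (1.09%) and 18 lower (0.156%). The counts turned on single animals: 31 genes were called without BD1 deletion animal 222, 65 and 63 without knockout animals 139 and 140, 35 and 40 without wild types 149 and 157, 83 without heterozygote 191 and 303 without BD1 line wild type 196. Among the 12 largest upward genes 11 passed, from Prss39 (4.81 ± 0.62) to Gm5796 (1.56), and Ggn (3.16, adjusted p = 0.137) did not. Gtsf2 (3.09), Zmynd15 (2.43), Zpbp2 (2.22), H4c2 (1.78), Henmt1 (1.60) and Stag3 (0.44) passed as well. All these genes were chosen by their mutant difference, which is one part of this test, so their passing follows in part from the choice. The 5 largest below 0 were Oasl2, of the interferon-induced oligoadenylate synthetase family (-1.36), Vsig10, an immunoglobulin domain protein (-1.28), the X-linked Magea6 (-1.06) and histone gene H2bfm (-1.06) and Ccng2, a cyclin G (-0.98). Vsig10 read 8.48, 8.66 and 8.44 in the BD1 deletion and 10.37, 9.97, 9.98 and 9.87 in the knockout, with control means of 9.12 and 9.37, and a second probe gave -0.37 and was not called. Oasl2, Vsig10 and Ccng2 lie on chromosome 5, where Brdt is, at 70 and 98 measured genes after it and 48 before it. In this test 9 of 768 tested genes of chromosome 5 were called, a share no larger than that of all genes (144 of 11529). Oasl2 was not called without animals 222, 149 or 157 or in a fit of the 4 groups at 20 dpp alone, and Magea6 and Ccng2 were lost under 17 and 16 of 27 alternatives.

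Genes of chromosome X were lower in the BD1 deletion where they were called. Of its 416 tested genes 87 were lower in the BD1 deletion (20.9%) and 0 higher, beside 953 lower and 901 higher of 11067 autosomal genes (8.61% lower). The median difference was -0.33 on X and -0.08 on autosomes. Animals did not overlap downward for 146 X genes and upward for 1, beside 2125 and 1513 of the 11067 autosomal genes. The median signal of X genes was 7.66, 7.59 and 7.32 in the BD1 deletion animals 193, 197 and 222 and 7.92, 7.92, 7.69 and 7.77 in the knockout, so no animals overlapped. It was 7.33 to 7.58 in the BD1 line controls and 7.35 to 7.41 in wild type of the knockout line. The difference between these control groups, taken gene by gene, had a median of 0.03 over X genes. The knockout lay 0.68 above its wild type and the BD1 deletion 0.26 above its controls in median on the log2 scale. Over autosomal genes these medians were 0.23 and 0.12, so part of each shift was not particular to X. X genes lower fell to 15 without animal 222, 22 without litter 2 and 37 under median scaling, with medians of -0.23, -0.22 and -0.28.

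**Figure D4:**
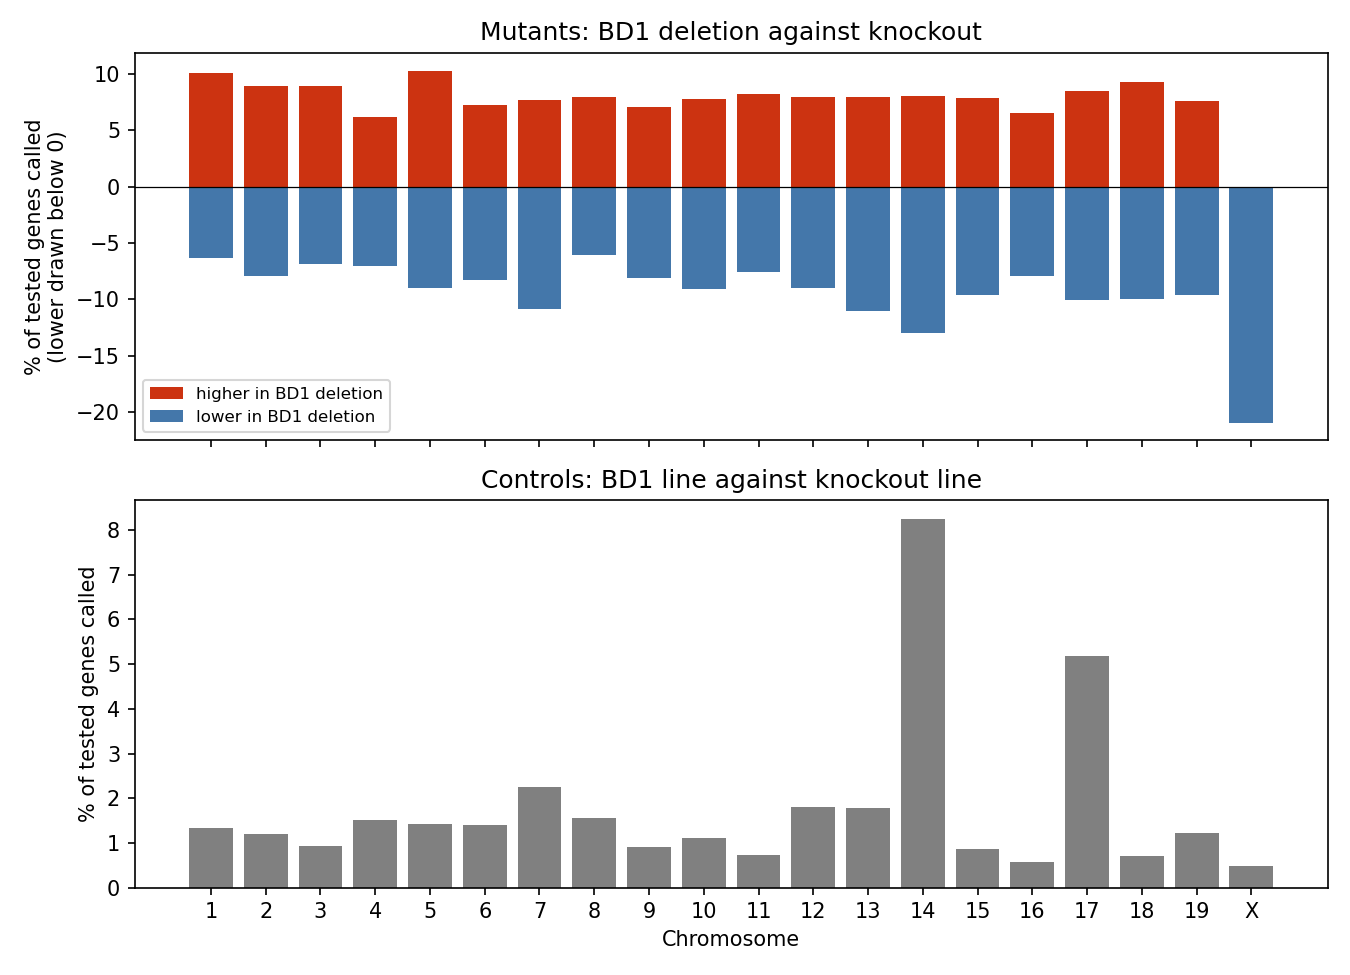
Share of the tested genes of each chromosome (horizontal axis) called between the mutants (top, percent, lower genes drawn below 0) and between the control groups (bottom, percent in either direction). Chromosome X has 20.9% lower and 0 higher genes in the top panel, and chromosomes 14 and 17 stand out in the bottom panel at 8.25% and 5.18%.

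The called genes were also set against normal maturation, given by wild type at 20 dpp minus heterozygous animals at 17 dpp, in which 8228 genes were called (71.4%), 2986 higher (25.9%) and 5242 lower (45.5%). None of those animals is a mutant of this comparison. Of the 907 genes higher in the BD1 deletion, 748 rose with age (82.5% of the 907 and 25.1% of the 2986) and 34 fell. Of the 1043 lower genes, 784 fell with age (75.2% of them and 15% of the 5242) and 42 rose. By animal, the median level of the higher genes was 9.09, 9.08 and 9.50 in animals 193, 197 and 222 and 7.79, 8.05, 8.25 and 8.41 in 139, 140, 148 and 152, values that the choice of genes fixes in order. Outside that choice it was 9.26 to 9.89 in the BD1 line controls, with heterozygote 191 lowest, 9.33 to 9.57 in wild type of the knockout line and 7.48 to 8.34 in heterozygous animals at 17 dpp. Genotype and litter also differ between the ages. The younger controls are heterozygous and come from litters 7, 8 and 9, while the wild types all come from litter 1, a litter of the knockout too. Age, genotype and litter cannot be told apart in this contrast.

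Testis weight did not separate the mutants. Testes weighed 18.6, 19 and 22.8 mg in the BD1 deletion and 18, 21.2, 21.3 and 21.5 mg in the knockout, and the heaviest was animal 222. The means were 20.1 ± 2.32 (SD, n = 3) and 20.5 ± 1.67 mg (SD, n = 4), a difference of -0.37 mg (exact two-sided permutation test, p = 0.743). With 35 splits and the smaller tail doubled the smallest p is 0.0571, so no difference could have passed 0.05.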

How the data were processed

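Total RNA of mouse testis was hybridised to Illumina bead arrays. The authors deposited probe signals as linear intensity, not normalized between arrays, with a detection p-value per probe and array; the submitters' processing notes name GenomeStudio 2011.1. Their deposited matrix of processed intensity was used as an alternative only. No source used here says whether background was subtracted before deposit. Signals were normalized by neqc of limma 3.58.1 (offset 16, negative controls inferred from the detection p-values) to the log2 scale, a unit computed here from the deposited values. Each animal's arrays were averaged. Probes detected (p under 0.01) on all arrays of at least 3 animals were kept (21190), and each gene took its probe of highest mean (11529 genes). Of 4386 genes with several probes, 7 had probes called in opposite directions.

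A linear model over all 6 groups and 24 animals (lmFit, eBayes with trend) gave the contrasts. n counts animals, which came from few litters. The arrays' number limits the precision. Simulated data had changes of 0.5, 1 and 2 on the log2 scale in 67, 67 and 66 of 11529 genes. Of these, 29.9%, 73.1% and 98.5% were recovered in the mutant comparison, with 7 false calls of 141. The simulated noise was independent between animals and held no litter effect, while litter as a random block had a correlation of 0.375 in the data. The simulation therefore does not measure false calls among the 1950 genes called between the mutants. Where the lower group's arrays all missed a gene, the fold is a bound: its signal there was raised on each array to the lowest signal of a detected probe.

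Probes were named through the platform annotation (34885 with 1 symbol, 18 with several, 10378 with none), updated by Entrez identifier through RefSeq GRCm38.p6, used for names, chromosomes and gene order. Named genes were Brdt, the 12 largest called differences each way (detected on every array of the higher group, animals not overlapping), up to 4 called genes per list with the smallest adjusted p, and 5 each way for the control and mutant-minus-control comparisons; any further gene was picked with its value known. The 21 lists hold 517 genes, 378 of them measured. The members and lists were chosen with earlier results of these data known. Replicate numbers did not pair samples: same-numbered arrays of the mutants correlated between -0.188 and 0.351 after removal of group means, and 3 of 6 correlated best with their own number.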

Additional observations from a re-analysis of the deposited data

Results flagged for a closer look

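For 27 named genes the effect of the BD1 deletion against its controls differed from that of the knockout against its wild type (limma, adjusted p under 0.05 for the difference of the effects), which is the mutant difference minus the control difference. Named genes were chosen through this test, through the control difference or through the mutant difference, which are parts of it. Their number therefore follows in part from the choice. Over all genes tested, 144 of 11529 were called (1.25%). In the following, each gene is given with the difference between the effects and, in brackets, the BD1 deletion effect and then the knockout effect, on the log2 scale. The effect was less negative or more positive in the BD1 deletion for Prss39 by 4.81 (-1.45 and -6.26), Prss21 by 4.67 (-1.71 and -6.39), Ccdc178 by 4.13 (-1.09 and -5.23), Ccna1 by 3.65 (-1.38 and -5.03), Gm9748 by 3.41 (-1.14 and -4.55), Jakmip2 by 3.37 (-0.14 and -3.52) and Lrrc18 by 3.34 (0.04 and -3.29). The same direction was seen for Slc25a2 by 3.32 (-1.19 and -4.50), Galntl6 by 3.31 (-1.63 and -4.94), Fa2h by 3.30 (-1.59 and -4.89), Aqp11 by 3.25 (-1.19 and -4.44), Gtsf2 by 3.09 (-1.49 and -4.58), Brdt by 2.67 (-1.03 and -3.70) and Cdh24 by 2.67 (0.83 and -1.84). It was also seen for Zmynd15 by 2.43 (-1.67 and -4.09), Zpbp2 by 2.22 (-0.55 and -2.77), Oit1 by 1.96 (-0.04 and -2.00), H4c2 by 1.78 (-0.35 and -2.13), Henmt1 by 1.60 (-0.02 and -1.62), Gm5796 by 1.56 (-0.84 and -2.40) and Stag3 by 0.44 (0.04 and -0.40). The effect was lower in the BD1 deletion for Oasl2 by -1.36 (-0.40 and 0.96), Vsig10 by -1.28 (-0.59 and 0.68), Magea6 by -1.06 (0.13 and 1.19), H2bfm by -1.06 (0.24 and 1.30), Ccng2 by -0.98 (-0.45 and 0.53) and Rdm1 by -0.74 (1.01 and 1.74). Lrrc18, Oit1 and Cdh24 stand here through their controls, which differed by more than the mutants did.

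Some animals stood far from the rest of their group by the gap between the outermost value and its neighbour, a test that chance meets in about 1 of 20 groups. Among the 4 BD1 line controls these were Ccng2 at 7.53 in animal 191 (others 8.10 to 8.14), Hbb-b2 at 5.34 in animal 196 (others 7.11 to 7.40), Ndufb10 at 9.13 in animal 191 (others 5.56 to 5.67) and Vsig10 at 9.29 in animal 195 (others 9.05 to 9.07), all log2 signals. In the knockout the testis weight of animal 139, 18 mg, lay below the others at 21.2 to 21.5 mg.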

How the results depend on the processing

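Of 80 named genes of the mutant comparison, 39 stayed called under every alternative and 41 were lost under at least 1, with 0 reversed. Leaving out 1 animal at a time gave 547 to 1974 calls between the mutants (331 to 949 higher, 216 to 1025 lower), 64 to 232 between the controls (33 to 121 higher, 31 to 111 lower), 31 to 303 for the mutant minus the control difference (29 to 225 higher, 2 to 78 lower; added after the data were seen), and testis weight differences of -1.7 to 0.4 mg. Between the mutants, lower genes numbered 397 under median scaling, 484 when all differences were centred and 490 with litter as a random block (1159 calls in all), and without litter 2 there were 720 calls, 421 higher and 299 lower. Between the controls, median scaling gave 48 lower genes, a fit of those groups alone 58 calls (39 higher, 19 lower), and wild-type controls alone in the BD1 line 61 higher. For the mutant minus the control difference, calls numbered 95 (9 lower) both without background correction and with the authors' matrix, 278 (232 higher, 46 lower) with array brightness as covariate, 52 (49 higher, 3 lower) in the 4 groups at 20 dpp alone and 53 (44 higher, 9 lower) with wild-type controls only; lower genes were 7 under median scaling, 8 without a detection filter, 29 with first arrays only, 32 with litter as a block and 5 with centred differences (added later). With brightness as covariate 1382 genes were called against knockout litter 2 (added later). The causes were not tested. A replicate block of arrays within animals, animal as a random term, gave 2708 calls between the mutants (1250 higher, 1458 lower), although the numbers do not pair the samples.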
